A study of Mus musculus with 9 samples.

Results

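Nonsense-mediated decay (NMD) is the surveillance pathway that degrades mRNAs whose stop codon lies too far upstream of the last exon junction. A ribosome that stops before an exon junction leaves the exon junction complex on the RNA, UPF1 is phosphorylated by the kinase SMG1, and further SMG proteins lead to cleavage and decay. Many genes are known to make such transcripts by alternative splicing, and the SR proteins, splicing factors rich in arginine and serine, use them to limit their own amount through a "poison" exon that carries a stop codon. The NMD transcripts examined here were the rows of the transcript table that GENCODE mouse release 21 (mm10, assembly GRCm38) gives the type nonsense_mediated_decay and that reached 10 or more counts in 3 or more of the 9 libraries. Of 140948 transcripts in the table, 7180 were of this type, and 2365 of these (32.9%) reached the minimum. They came from 1843 genes.

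The libraries were made from primary microglia, the immune cells of the brain, which were shaken off mixed glial cultures of embryonic (E18) C57BL/6J mouse brains and treated with siRNA, a short double-stranded RNA that lowers a matching mRNA. There were 3 libraries each of control siRNA-treated, Chd8 siRNA-treated, and Tsc2 siRNA-treated microglia, numbered 1 to 3 in each group, and by the study's methods each biological replicate was a culture from a distinct mouse brain. Chd8 encodes a chromatin remodeler and Tsc2 an inhibitor of mTOR signaling. For the sequenced microglia the study's results text gives LPS stimulation of 3 days, while its methods name the siRNA treatment of 3 days and no LPS for these libraries but do not list them among the experiments made without LPS. The sample descriptions name no LPS, and a stimulation would be shared by all groups.

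Total rounded counts were between 16913005 and 33213477 per library, and 3 counts, taken as the floor of detection in a library, were 0.0903 to 0.177 CPM (counts scaled to the library's total). In counts summed per gene and scaled by TMM, Chd8 was at 103 ± 13.05 CPM with control siRNA, 56.5 ± 26.4 CPM with Chd8 siRNA, and 103 ± 14.5 CPM with Tsc2 siRNA (mean ± SD, n = 3), and the Chd8 siRNA libraries 1 to 3 had 86.8, 44.6, and 38.2 CPM beside 93.6 CPM in the lowest control library. Tsc2 was at 39.8 ± 0.942, 39.1 ± 0.887, and 30.5 ± 5.95 CPM in the same order, with 24.6, 30.6, and 36.4 CPM in the Tsc2 siRNA libraries 1 to 3 beside 38.9 CPM in the lowest control library. The fall was thus smallest in the Chd8 siRNA library 1 and the Tsc2 siRNA library 3. The 12 microglial markers together held 2904 to 4050 CPM, and all but Tmem119 exceeded 1 CPM on average. Markers of astrocytes held 12.3 to 112 CPM, and those of neurons 1.38 to 6.00 CPM. The astrocyte maximum was in a control library, against maxima of 47.5 CPM with Chd8 siRNA and 52.4 CPM with Tsc2 siRNA. Fibroblast and vascular markers reached at most 72.8, 31.7, and 51.6 CPM with control, Chd8, and Tsc2 siRNA. Those of the oligodendrocyte lineage held 12.2 to 27.5 CPM. Chd8 had no row of the NMD type, and the single such row of Tsc2 was at 0 counts in all 9 libraries, so that no NMD transcript of a targeted gene could be followed.

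The sequences around the stop codon show where translation is annotated to end in the transcripts that the results turn on. Each is given 5′ to 3′ from the GENCODE release 21 transcripts as 30 bases, with the stop codon in capitals, 15 bases before it, and 12 bases after it. The first group holds the 5 most abundant NMD transcripts and the other abundant ones of RNA-binding proteins, Ddx5-208 and Hnrnpu-206, of which Ddx5-208 was added after its values were seen.
Lars2-209: ctacttcagatacacTGAccctcataatac
Mx1-203: tccaaactgccttcgTAAagattttatcaa
Rsad2-202: acagtgctggtcactTAGgcgcatattgtt
Ifi209-202: gcaacaatagccaagTGAtgaagcattctg
Lpl-203: ctgaagaagtctggcTGAcactggacaaac
Ddx5-208: tccagagggctaggtTAGtacaaactcgaa
Hnrnpu-206: gtgctgtgtgaagagTAAaaggggcccaac

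The next group shows NMD transcripts of SR proteins and of Smg1, the kinase of the pathway itself, chosen after their values were seen.
Srsf3-201: cttctcaccaccctcTGAatctgcattagc
Tra2b-206: aagctcaggaataagTGAagctgaaatttg
Tra2a-202: agaagattggtcagaTAGaagcacttgaat
Srsf7-203: ttgagtcagtcgcctTGAttcagaatgtca
Srsf6-201: gcagccttttgccatTAGacgcagggtgat
Srsf2-202: ggagcagtttcttccTAAgaaaatgctgcg
Smg1-204: gaagactggctactgTAAagcagctgaagg

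In Srsf3-201 (chr17:29032632-29042897, + strand), Tra2b-206 (chr16:22246462-22265926, − strand), Tra2a-202 (chr6:49243924-49264011, − strand), and Srsf7-203 (chr17:80200830-80207307, − strand), the stop codon lay in sequence that no protein-coding transcript of the gene holds in an exon. It was in exon 4 of 7 in Srsf3-201, exon 2 of 10 in Tra2b-206, exon 2 of 9 in Tra2a-202, and exon 4 of 9 in Srsf7-203. In Srsf2-202 and Srsf6-201 it was a stop codon that a protein-coding transcript of the gene uses as well. The last group shows transcripts that were at 0 counts in every library of at least 1 siRNA group and present in another, also chosen after their values were seen.
Pttg1ip-204: gagatacggttgctcTGAgtacacaaacag
Zgpat-203: aagatgacagagttcTAGcggccctgcctg
Abhd12-204: atacttccctggcttTGActggttcttcct
Gpi1-207: accaaggcaccaagaTGAtaccctgtgact
Rps6kc1-203: ttctgtttaccctgtTGAagaaactgcccg

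Among the 2364 NMD transcripts with an annotated stop codon, 2348 (99.3%) had it more than 50 bases upstream of the last exon junction, which is how the class is defined, and the distance had a median of 440 bases with quartiles of 212 and 989 bases. In the protein-coding transcripts of the same genes that passed the same count minimum, 15 of 3584 (0.419%) had the stop codon that far upstream. A median of 3 junctions followed the stop codon in the NMD transcripts. The stop codon was TGA in 56.5%, TAA in 23.0%, and TAG in 20.6% of them, against 51.3%, 25.7%, and 23.0% of the protein-coding transcripts. The NMD transcripts were shorter, with a median of 1900 bases against 2577, and their annotated coding sequence had a median of 345 bases against 1299.

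**Figure D1:**
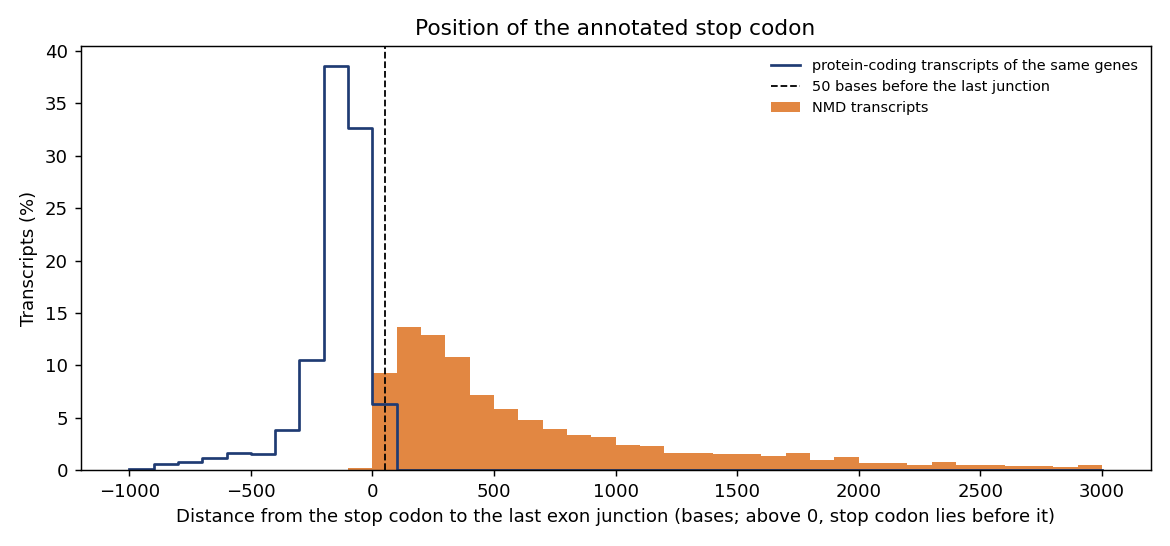
Histogram of the distance in bases from the annotated stop codon to the last exon junction (x axis, 100-base bins; positive where the stop codon lies upstream of the junction) against the percentage of transcripts (y axis). Orange bars are the NMD transcripts and the blue line is the protein-coding transcripts of the same genes; 99.3% of the first and 0.419% of the second lie right of the dashed line at 50 bases.

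The stop codon lay within the coding sequence of a protein-coding transcript, in another frame or in an altered order of exons, in 1284 NMD transcripts (54.3%) of 1078 genes. In 850 (35.9%) it lay in no exon of a protein-coding transcript, as in the poison exons of Tra2a and Tra2b. It was shared with a protein-coding transcript in 168 (7.10%) and lay in a UTR of one in 28. The 168 with a shared stop codon had a median share of 12.7% of the counts of their gene, against 6.60% where the stop codon was within a coding sequence and 5.36% where it was in no coding exon. Across the NMD transcripts, the share and the transcript length had a Spearman rho of 0.47, and the share and the distance to the last junction one of 0.22. These are descriptions across transcripts that share libraries and genes, and longer transcripts collect more counts.

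All further values are shares, that is the counts of an NMD transcript as a percentage of the summed counts of all transcripts of its gene in that library, unless CPM is named. Counts were assigned to transcripts by an expectation model in which isoforms of a gene share reads, so that a share is an estimate. The mean share over the 9 libraries had a median of 6.76% with quartiles of 2.30% and 17.3%. It was over 50% for 138 and under 1% for 284 of the 2365. The median level was 1.25 CPM, 292 transcripts exceeded 10 CPM, 30 exceeded 100 CPM, and the 20 most abundant held 34.5% of all counts on NMD transcripts. All 9 libraries had 10 or more counts for 786 of them (33.2%). The rule left 351 transcripts just inside, with 10 or more counts in exactly 3 libraries and a median of 8.56 mean counts, and 537 just outside, with 2 such libraries and 5.33 mean counts.

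The most abundant NMD transcript was Lars2-209 (chr9:123366954-123462666, + strand), of the mitochondrial leucyl-tRNA synthetase, at 931 CPM. Control libraries 1 to 3 had shares of 34.9%, 68.2%, and 56.2%, the libraries of Chd8 siRNA 55.1%, 66.9%, and 58.2%, and those of Tsc2 siRNA 51.2%, 64.9%, and 53.5%. The control library 1 was the lowest of the 9, replicate 2 was the highest in each group, and the groups overlapped. Of the next 9, 4 were products of interferon-induced genes. Mx1-203 (chr16:97447035-97462907, − strand), of an antiviral GTPase that C57BL/6 mice are known to carry as a truncated allele, held 43.7% ± 0.964 of its gene with control siRNA, 45.5% ± 4.51 with Chd8 siRNA, and 44.1% ± 1.56 with Tsc2 siRNA. Lars2 is known to hold a stretch that resembles ribosomal RNA, and whether reads of ribosomal RNA contribute to the counts of Lars2-209 was not tested. Rsad2-202, of viperin, was as abundant as Mx1-203 (both 628 CPM) but held only 5.86% to 7.68% of its gene.

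Ifi209-202, of a cytosolic nucleic acid sensor family, was the one of the 12 most abundant transcripts with an unadjusted p under 0.05 in edgeR's quasi-likelihood test. It held 33.3%, 32.05%, and 32.02% with control siRNA, 34.5%, 39.1%, and 34.7% with Chd8 siRNA, and 36.4%, 34.2%, and 34.6% with Tsc2 siRNA. Every library of either knockdown lay above every control library, with a log2 difference of 0.15 ± 0.05 (SE, unadjusted p = 0.0195) for Chd8 siRNA and 0.11 ± 0.05 (unadjusted p = 0.0675) for Tsc2 siRNA, and the adjusted p was 1 in both. Oasl2-205, of an interferon-induced oligoadenylate synthetase-like protein, held 24.9% to 30.2% with overlapping groups.

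Other abundant NMD transcripts belonged to lipid, signaling, and RNA-processing genes. Lpl-203, of lipoprotein lipase, held 28.6% ± 1.66, 27.9% ± 0.610, and 27.9% ± 0.677 with control, Chd8, and Tsc2 siRNA. Rgs1-204, of a regulator of G protein signaling, held 65.1% to 73.7%, and replicate 1 was the highest in each group. Ddx5-208, of an RNA helicase, held 31.3% to 37.1%, and Hnrnpu-206, of a nuclear RNA-binding protein, 63.3% to 69.85%. Tor1aip1-206, of a nuclear envelope protein, held 25.9% to 32.2%, and 699 of its bases overlap exons of Tor1aip2 on the other strand. Rin2-208, of a Ras and Rab interactor, held 50.7% to 71.96%, with both ends of this range in the Tsc2 siRNA group. Grip2-204, of a scaffold protein of glutamate receptors, held between 99.95% and 100% of its gene at 352 CPM. For none of these did the groups separate.

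**Figure D2:**
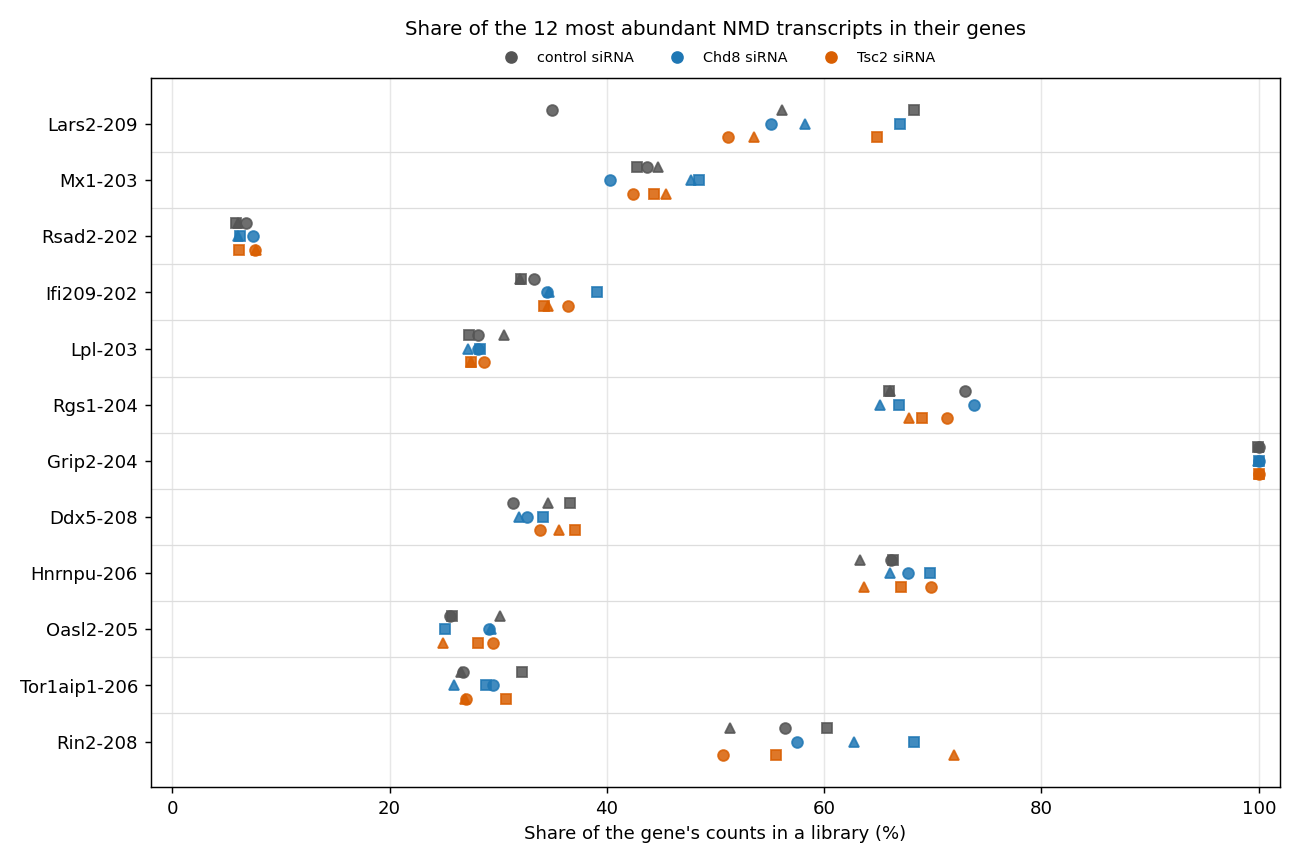
Share of the counts of its gene (x axis, %) of each of the 12 most abundant NMD transcripts (rows, most abundant on top) in the 9 libraries. Colors give the siRNA group, and circle, square, and triangle give replicates 1, 2, and 3; the groups overlap in every row except Ifi209-202, where the control libraries lie left of the others.

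The highest shares belonged partly to gene models with a single transcript, for which the share is 100% by construction. Of the 10 transcripts with the highest share in genes of 10 CPM or more, Gm20605-201, Gm28043-201, and Gm20716-201 were the only transcripts of their genes, and each covers exons of neighboring genes on its strand (Sap25 and Lrch4; Cmtr1 and Rnf8; Adnp and Dpm1). Gm45140-202 and Gm28036-201 likewise cover exons of neighbors, so that their counts could be those of the neighbors. Ctu2-208, of a tRNA thiolation enzyme, held 83.6% to 97.1% of its gene, and 2441 of its bases overlap Piezo1 on the other strand. Pet100-206, of a cytochrome c oxidase assembly factor, held 80.3% to 98.05% and overlaps Pcp2 on the other strand by 214 bases. Gbp4-202, of an interferon-induced guanylate-binding protein, held 65.8% to 86.2%.

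Summed over all NMD transcripts, the share of gene-matched counts was 1.77%, 1.81%, and 1.75% with control siRNA, 1.82%, 1.86%, and 1.78% with Chd8 siRNA, and 1.86%, 1.85%, and 1.80% with Tsc2 siRNA. Within each replicate number both knockdown libraries exceeded the control library, by 0.044 ± 0.010 percentage points for Chd8 siRNA and 0.059 ± 0.027 for Tsc2 siRNA (mean ± SD of 3 differences), while both knockdown groups overlapped the control group. Without the 20 most abundant transcripts, a choice made after the data were seen, the differences were −0.0059 ± 0.0268 and 0.017 ± 0.018 percentage points. Without Lars2-209 alone, also chosen after the data were seen, they were 0.041 ± 0.017 and 0.064 ± 0.015 percentage points. Every Tsc2 siRNA library then lay above every control library, while the Chd8 siRNA and control groups overlapped. As a percentage of the counts of the genes that have an NMD transcript, the values were 10.9%, 11.4%, and 10.98% with control siRNA, 10.98%, 11.7%, and 10.97% with Chd8 siRNA, and 11.3%, 11.5%, and 11.1% with Tsc2 siRNA. The median share of an NMD transcript in its gene went the other way with Chd8 siRNA, at 5.09%, 4.60%, and 4.65% with control siRNA, 5.05%, 3.82%, and 4.57% with Chd8 siRNA, and 5.35%, 4.44%, and 4.77% with Tsc2 siRNA. Over transcripts with 10 or more counts in all 9 libraries, it was 11.27%, 10.90%, and 10.72% with control siRNA. With Chd8 siRNA it was 10.52%, 10.95%, and 10.66% there, with replicate 2 higher. Divided by transcript length, the summed share had a control mean of 0.45%. It was 0.0190 ± 0.0326 percentage points higher with Chd8 siRNA, with replicate 2 lower, and 0.0480 ± 0.0139 higher with Tsc2 siRNA. On this measure every Tsc2 siRNA library lay above every control library, at 0.485%, 0.474%, and 0.534% against 0.447%, 0.432%, and 0.470%. No test was run on these values, and with 3 libraries a group an exact test could not reach 0.05.

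**Figure D3:**
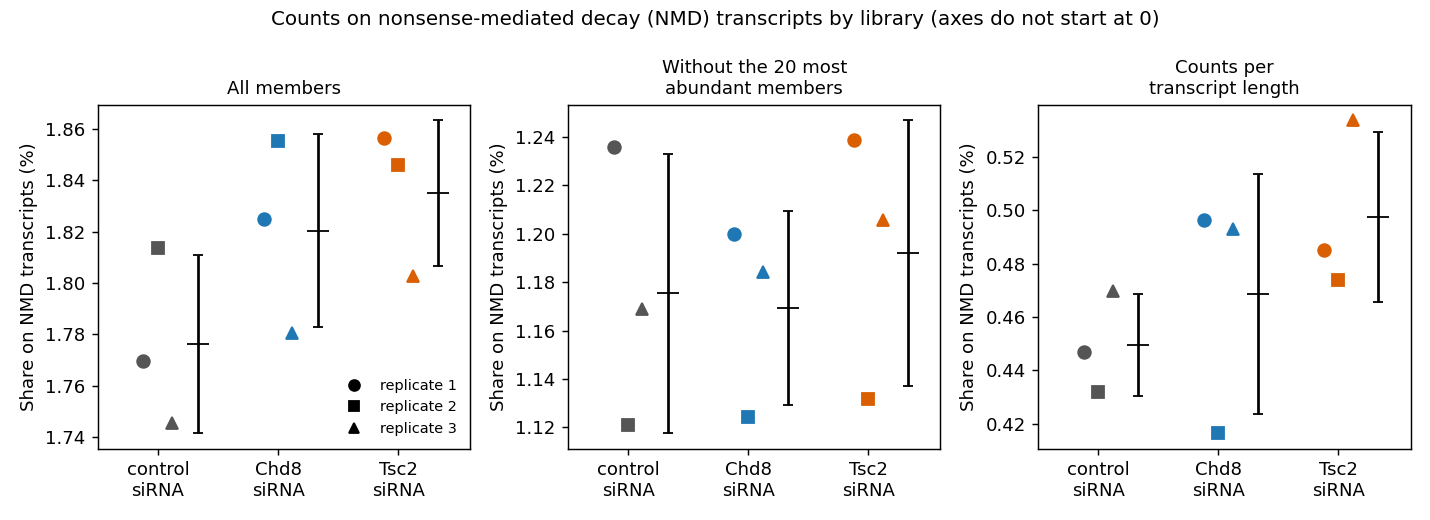
Share of counts on NMD transcripts (y axes, %, not starting at 0) per library by siRNA group: all NMD transcripts (left), without the 20 most abundant (middle), and with counts divided by transcript length (right). Symbols are replicates and the black marks are mean ± SD of 3 libraries; on the left each knockdown library is above the control library of its number, and in the middle the groups overlap with means of 1.18%, 1.17%, and 1.19%.

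The comparison of single shares asked which NMD transcripts took a different part of their gene after Chd8 or Tsc2 knockdown. It used edgeR's quasi-likelihood test with the gene's summed count as offset, over 35790 transcripts of all types, of which 2278 were NMD transcripts, and a call needed a Benjamini-Hochberg adjusted p under 0.05 and a fold of 1.5. No NMD transcript was called in any comparison, and neither was any transcript of another type (0% in each). The lowest adjusted p of an NMD transcript reached 0.245 when Chd8 siRNA was compared with control, 0.456 when Tsc2 siRNA was, and 0.545 between the knockdowns. A result of 0 calls does not show that shares were alike, because shares varied widely between libraries of 1 group. In the 587 most abundant of the tested NMD transcripts, from 3.84 CPM, the median coefficient of variation within a group was 22.9%, and in the 541 least abundant, up to 0.585 CPM, it was 102.3%. Other tests of the same counts made a few calls. edgeR's diffSpliceDGE called 8 of 2255 NMD transcripts for Chd8 siRNA (0.355%), 3 for Tsc2 siRNA (0.133%), and 5 between the knockdowns (0.222%), where it called 0.117%, 0.0938%, and 0.176% of all transcripts tested. Limma on log2 ratios called 3 of 2278 (0.132%), 4 (0.176%), and 2 (0.0878%), where it called 0.0754%, 0.0726%, and 0.101% of all transcripts. Each of these 16 and 9 calls was of a transcript at 0 counts in at least 1 library. The minimum of 10 counts in 3 libraries was reached only with the libraries of the higher group of a comparison by 530 NMD transcripts for Chd8 siRNA, 564 for Tsc2 siRNA, and 545 between the knockdowns, and these had to be high in that group. They made 5, 1, and 5 of the diffSpliceDGE calls, 2, 2, and 2 of the limma calls, and 34, 34, and 46 of the 87, 84, and 95 p-values under 0.05 counted next. Such transcripts are described by their counts and shares, with no test.

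At an unadjusted p under 0.05, 41 NMD transcripts were higher and 46 lower with Chd8 siRNA than with control siRNA, or 3.82% of those tested, where all transcripts gave 3.74% (1.56% higher and 2.17% lower). With Tsc2 siRNA 41 were higher and 43 lower (3.69%), beside 3.42% of all transcripts (1.62% and 1.8%). Between Chd8 siRNA and Tsc2 siRNA 39 were higher and 56 lower (4.17%), beside 3.66% (1.68% and 1.98%). The 3 libraries of a group did not overlap those of the control for 93 higher and 108 lower NMD transcripts with Chd8 siRNA, where the background was 4.18% higher and 4.84% lower, and for 89 and 97 with Tsc2 siRNA, where it was 4.33% and 4.73%. Between the knockdowns it was 73 and 95, beside 4.2% and 4.65%. The NMD transcripts thus passed at about the rate of all transcripts. The counts by direction depended on single libraries, with a group left at 2 libraries. Without the Chd8 siRNA library 1, 42 were higher and 77 lower with Chd8 siRNA than with control siRNA, beside 1.72% and 3.73% of all transcripts. For Tsc2 siRNA it was 37 and 78 without its library 1 (beside 1.46% and 2.62%) and 65 and 45 without the control library 1 (beside 2.51% and 1.68%). Between the knockdowns it was 73 and 47 without the Tsc2 siRNA library 1 (beside 2.51% and 1.8%) and 41 and 28 without the Tsc2 siRNA library 3 (beside 2.07% and 1.57%), so that the direction with more transcripts turned. The Chd8 siRNA library 1 and the Tsc2 siRNA library 3 were those in which the targeted gene fell least, whose part in these counts was not tested. Their median log2 difference lay at −0.012 with Chd8 siRNA and −0.0020 with Tsc2 siRNA, while retained introns had medians of −0.12 and −0.07.

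The lowest p in both knockdowns belonged to Pttg1ip-204 (chr10:77581758-77593899, + strand), of a protein that binds securin. It had 0 counts in all 3 control libraries, 51, 37, and 41 counts with Chd8 siRNA, and 26, 23, and 19 with Tsc2 siRNA. It therefore reached the count minimum through the knockdown libraries alone, and either knockdown group met it without the other. The shares were 3.90%, 5.46%, and 3.69% with Chd8 siRNA and 2.73%, 3.01%, and 1.47% with Tsc2 siRNA, against a floor of 0.360% that 3 counts per control library would give. The mean share was 12.1-fold above that floor with Chd8 siRNA and 6.68-fold above it with Tsc2 siRNA, with unadjusted p of 4.8e-05 and 7.65e-05 in edgeR's quasi-likelihood test. Such floors cover counting error only. A count of 0 can also arise when reads are assigned among isoforms, so folds over a floor are not lower bounds of a change. It was called with limma on log2 ratios (adjusted p = 0.00773 and 0.00755) and not with edgeR's diffSpliceDGE (adjusted p = 0.0897 and 0.171).

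A pair of further transcripts had 0 counts in every control library and counts in every knockdown library. They likewise reached the count minimum through the knockdown libraries alone, and either knockdown group met it without the other. Zgpat-203 (chr2:181365423-181383628, + strand), of a zinc finger repressor, had 55, 50, and 24 counts with Chd8 siRNA and 79, 32, and 16 with Tsc2 siRNA, or shares of 7.69% to 16.7% and 3.90% to 23.1%. The mean share was 10.6-fold and 9.93-fold above a control floor of 1.22% (edgeR, unadjusted p = 0.000732 and 0.000768), and without the Tsc2 siRNA library 1 the second fold was 5.44. Of its bases, 1262 lie in exons of Lime1 on the same strand. Abhd12-204 (chr2:150832517-150904731, − strand), of a lysophosphatidylserine lipase, had 92, 77, and 12 counts with Chd8 siRNA and 51, 57, and 232 with Tsc2 siRNA. It held 0.343% to 3.01% and 1.54% to 5.08% of its gene, and its mean share was 17.0-fold and 27.2-fold above the control floor of 0.106% (edgeR, unadjusted p = 0.00164 and 0.0012). Without the Chd8 siRNA library 2 the first fold was 11.3, without the Tsc2 siRNA library 3 the second was 16.9, and the lowest Chd8 siRNA library alone was 3.23-fold above the floor. Both transcripts were called in both knockdowns with edgeR's diffSpliceDGE, at an adjusted p of 0.026 and 0.0323 for Zgpat-203 and of 0.00167 and 0.00107 for Abhd12-204. Limma on log2 ratios did not call Zgpat-203 (adjusted p = 0.0666 and 0.109) or Abhd12-204 with Chd8 siRNA (adjusted p = 0.0667), and called Abhd12-204 with Tsc2 siRNA (adjusted p = 0.0434).

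Gpi1-207 (chr7:34202206-34207898, − strand), of the glycolytic enzyme glucose-6-phosphate isomerase, was the opposite case. It had 109, 55, and 37 counts in the control libraries, a share of 3.32%, 3.10%, and 1.64%, and 0 counts in all 6 knockdown libraries. The mean control share was 2.69%, or 18.8-fold above the floor of the Chd8 siRNA libraries and 23.0-fold above that of the Tsc2 siRNA libraries. It reached the count minimum with the control libraries alone. Because the same 3 control libraries enter both comparisons, the agreement of the knockdowns on these 4 transcripts is not independent.

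Another pair reached the count minimum through the control libraries alone as well. Rps6kc1-203 (chr1:190772879-190911738, − strand), of a kinase-like protein that binds sphingosine kinase, had 42, 48, and 30 counts with control siRNA, 0 in all Chd8 siRNA libraries, and 9, 9, and 4 with Tsc2 siRNA. The mean control share was 9.45-fold above the floor of the Chd8 siRNA libraries. Ufsp2-204, of a protease of the UFM1 pathway, had 27, 28, and 62 counts with control siRNA, 0 with Chd8 siRNA, and 9, 6, and 2 with Tsc2 siRNA, and its mean control share was 10.2-fold above the Chd8 siRNA floor. In both, every Tsc2 siRNA library lay below every control library, and the lowest Tsc2 siRNA library was under the floor of the Chd8 siRNA libraries.

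Rad52-206, of a DNA repair protein, went from 0 counts in the control libraries to 19, 16, and 103 with Chd8 siRNA and had 23, 21, and 0 with Tsc2 siRNA, so that it needed the Chd8 siRNA libraries to reach the minimum. Pum2-213, of a translational repressor that binds RNA, fell short of a call with shares of 0.920%, 1.01%, and 1.32% with control and 0.514%, 0.440%, and 0.381% with Chd8 siRNA, a log2 difference of −1.28 ± 0.31 (unadjusted p = 0.00437). Fam53c-203 held 15.3%, 14.6%, and 24.8% with control siRNA against 10.5%, 7.30%, and 9.34% with Chd8 siRNA, a log2 difference of −1.01 ± 0.25 (unadjusted p = 0.00498).

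With Tsc2 siRNA, several low p-values were in transcripts that every library held. Brox-206, of a protein that repairs the nuclear envelope with ESCRT proteins, held 22.5%, 23.98%, and 28.3% of its gene with control siRNA and 18.7%, 17.5%, and 15.2% with Tsc2 siRNA, a log2 difference of −0.54 ± 0.11 (SE, unadjusted p = 0.00182), and 19.9% to 23.2% with Chd8 siRNA, and 367 of its bases overlap Aida on the other strand. Man2b1-203, of the lysosomal alpha-mannosidase, held 8.05%, 8.77%, and 7.74% with control siRNA and 9.46%, 9.65%, and 9.73% with Tsc2 siRNA, a log2 difference of 0.23 ± 0.06 (unadjusted p = 0.00512). Both groups were tight, and the groups did not overlap in either transcript.

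Pum3-205, of a nucleolar RNA-binding protein, held 36.9%, 28.6%, and 27.2% with control siRNA and 10.6%, 10.3%, and 15.6% with Tsc2 siRNA (log2 difference −1.34 ± 0.29, unadjusted p = 0.00219), and 35.5%, 19.97%, and 20.95% with Chd8 siRNA. Gak-206, of a clathrin-uncoating kinase, held 7.61% ± 0.621 with control siRNA and 2.92% ± 0.882 with Tsc2 siRNA (unadjusted p = 0.00284). Ube2l3-206, of a ubiquitin-conjugating enzyme, had 21, 13, and 18 counts with control siRNA and 2, 2, and 0 with Tsc2 siRNA, and needed the control libraries to reach the minimum. Rad50-204 (chr11:53674755-53707319, − strand), of a DNA double-strand break repair protein, was at 0 counts in all control and all Chd8 siRNA libraries and had 39, 44, and 60 counts with Tsc2 siRNA. It held 9.80%, 26.5%, and 18.9% of its gene there, and the mean was 15.4-fold above the control floor of 1.20%. It reached the count minimum through the Tsc2 siRNA libraries alone.

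**Figure D4:**
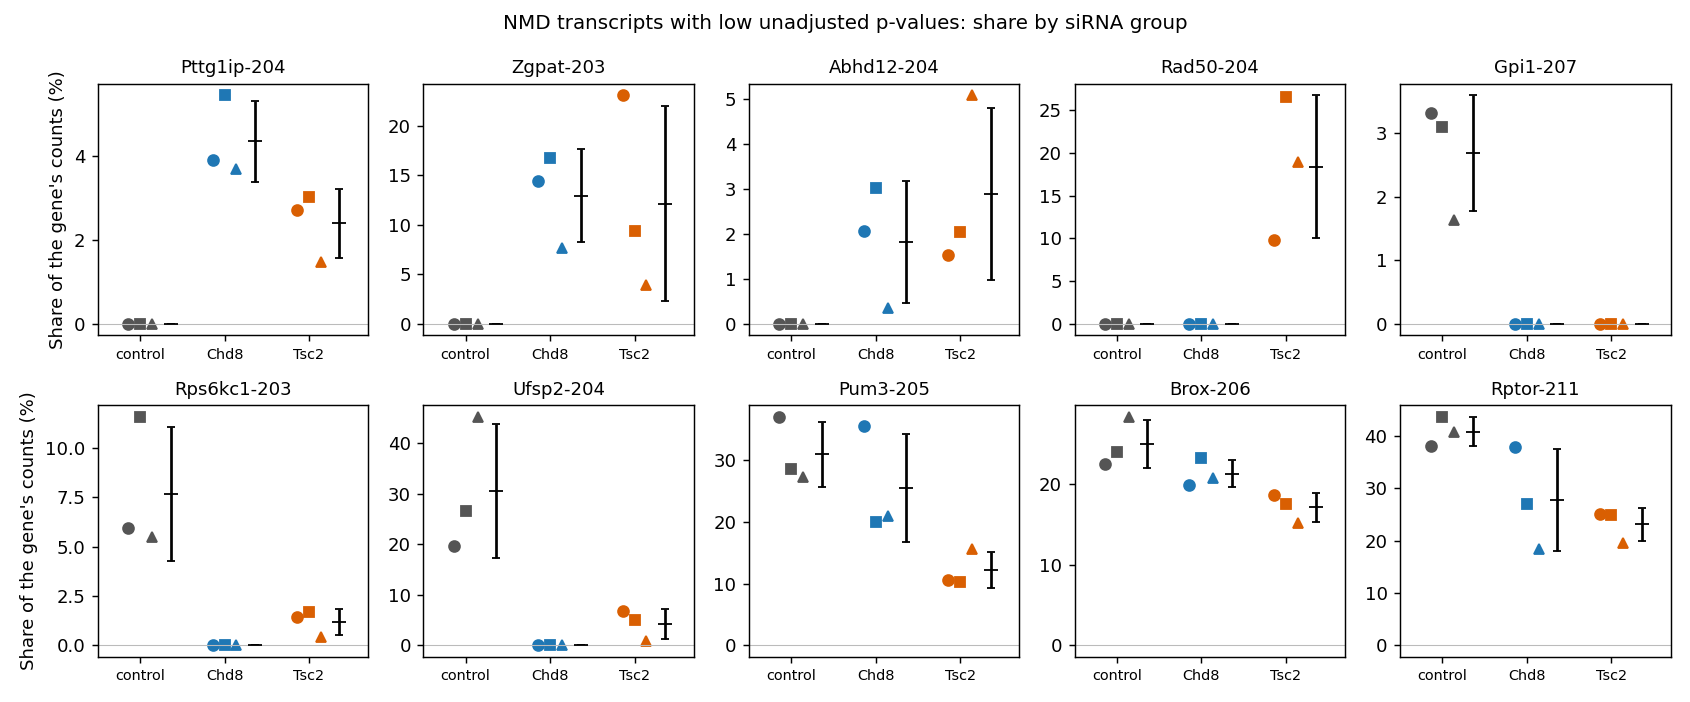
Share of the counts of its gene (y axes, %) in 10 NMD transcripts by siRNA group, with symbols for replicates 1 to 3 and black marks for mean ± SD of 3 libraries; 9 are described above and Rptor-211 is the most abundant of the TSC and mTOR list. Pttg1ip-204, Zgpat-203, and Abhd12-204 are at 0 in the control libraries, Gpi1-207 is at 0 in both knockdowns, Rad50-204 is above 0 with Tsc2 siRNA alone, and none was called by the quasi-likelihood test.

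Between the knockdowns, Ercc6-206, of a transcription-coupled repair factor, had the lowest p. It held 25.2%, 32.5%, and 27.6% with Chd8 siRNA and 12.04%, 12.01%, and 8.41% with Tsc2 siRNA, a log2 difference of 1.39 ± 0.23 (SE, unadjusted p = 0.000487, adjusted p = 0.545 in edgeR), with 14.4%, 23.3%, and 18.2% in the control libraries between them. Rnf149-203 and Ppfia1-204 were likewise higher with Chd8 siRNA in all 3 libraries, at log2 differences of 1.40 ± 0.27 and 0.77 ± 0.19. Zbtb9-202 had 18, 16, and 51 counts with Chd8 siRNA, 0 with Tsc2 siRNA, and 16, 0, and 29 with control siRNA, and 2938 of its bases lie in exons of Ggnbp1 on the same strand. Of the lower ones, Ifrd1-209 held 2.596%, 1.06%, and 1.24% with Chd8 siRNA and 6.46%, 7.08%, and 4.85% with Tsc2 siRNA. Otulin-203 and Ripk2-202, both of genes that act in ubiquitin-dependent immune signaling, differed by −1.34 ± 0.32 and −0.80 ± 0.19 on the log2 scale (unadjusted p = 0.00362 and 0.00357).

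NMD transcripts that were abundant in one library and at 0 in another were common in general. Counting every transcript with 100 or more counts in some library and at least 1 sister transcript, 325 of 1027 NMD transcripts (31.6%) were at 0 in another library, beside 18.8% of protein-coding transcripts, 16.5% of processed transcripts, and 8.41% of retained introns. In 300 of those 325 the gene itself had 100 or more counts in every library. The share at 0 in some library was 90.9% in the 541 least abundant of the tested NMD transcripts and 10.2% in the 587 most abundant. Within 1 group, Srsf3-206 had 74, 0, and 0 counts in the control libraries, and Qars-231, of glutaminyl-tRNA synthetase, had 289, 0, and 0 with Tsc2 siRNA. The numbers of NMD transcripts at 0 were 346, 431, and 418 with control siRNA, 326, 575, and 455 with Chd8 siRNA, and 342, 427, and 395 with Tsc2 siRNA, with the most in the Chd8 siRNA library 2, which had the second lowest total count.

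By function, NMD transcripts were most frequent among splicing genes. Of the SR protein genes with 10 or more counts in every library, 8 of 12 had at least 1 NMD transcript that reached the minimum, as did 14 of 27 hnRNP genes (51.9%), 39 of 83 genes of other splicing factors (47.0%), and 32 of 104 chromatin regulators (30.8%). Among all 10126 genes with a protein-coding transcript and the same counts it was 1752 (17.3%). The share was 15.5% (13 of 84) for ribosomal proteins, 15.9% (43 of 271) for immune genes of microglia, 12.3% (8 of 65) for translation factors, and 9.78% (9 of 92) for the respiratory chain and ATP synthase. Genes with more annotated transcripts have more rows that can reach the minimum, and no test was made of these counts. The counts of shares at an unadjusted p under 0.05 that follow, list by list, stand beside 3.74% of all transcripts with Chd8 siRNA (1.56% higher and 2.17% lower) and 3.42% with Tsc2 siRNA (1.62% higher and 1.8% lower), and nothing particular to a list is read from them.

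The 12 NMD transcripts of SR proteins were led by Tra2b-206 and Tra2a-202, whose poison exons carry the stop codons shown above. Tra2b-206 held 22.0%, 29.5%, and 27.5% of its gene in the control libraries, 23.8%, 24.2%, and 24.4% with Chd8 siRNA, and 28.7%, 28.3%, and 21.3% with Tsc2 siRNA. Tra2a-202 held 22.0% ± 2.28, 19.0% ± 4.31, and 20.9% ± 4.71 in the same order of groups. Srsf3-201 held 15.03%, 20.5%, and 9.50% with control, 13.7%, 15.8%, and 8.09% with Chd8 siRNA, and 16.3%, 16.02%, and 13.6% with Tsc2 siRNA, and replicate 3 was the lowest in each group. The groups overlapped in all 3.

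The remaining SR transcripts were less abundant. Srsf2-202, part of which lies opposite Mettl23 and Mfsd11, held 2.68% to 10.3%, Srsf7-203 2.93% to 11.2%, and Srsf6-201 0% to 7.22% of their genes. The 2 of Srsf4, Srsf4-203 and Srsf4-204, were at 0.478% to 3.70% and 1.63% to 5.80%. Srsf11-206, Srsf11-210, Srsf2-204, and Srsf3-206 each stayed under 3%. None of the 12 had an unadjusted p under 0.05 in any comparison, and their median log2 difference lay at −0.27 with Chd8 siRNA and −0.11 with Tsc2 siRNA, beside −0.012 and −0.0020 over all NMD transcripts. Summed over the 8 genes, they held 13.02%, 17.1%, and 13.5% of the counts with control siRNA, 12.5%, 12.6%, and 12.2% with Chd8 siRNA, and 15.02%, 13.99%, and 12.3% with Tsc2 siRNA. All 3 Chd8 siRNA libraries thus lay below all 3 control libraries, a sum over chosen genes on which no test was run, and of the 15 gene lists it was the 1 whose sums did not overlap between these groups. Between the knockdowns the sums of 2 lists, ribosomal proteins and translation factors, did not overlap, both lower with Chd8 siRNA.

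**Figure D5:**
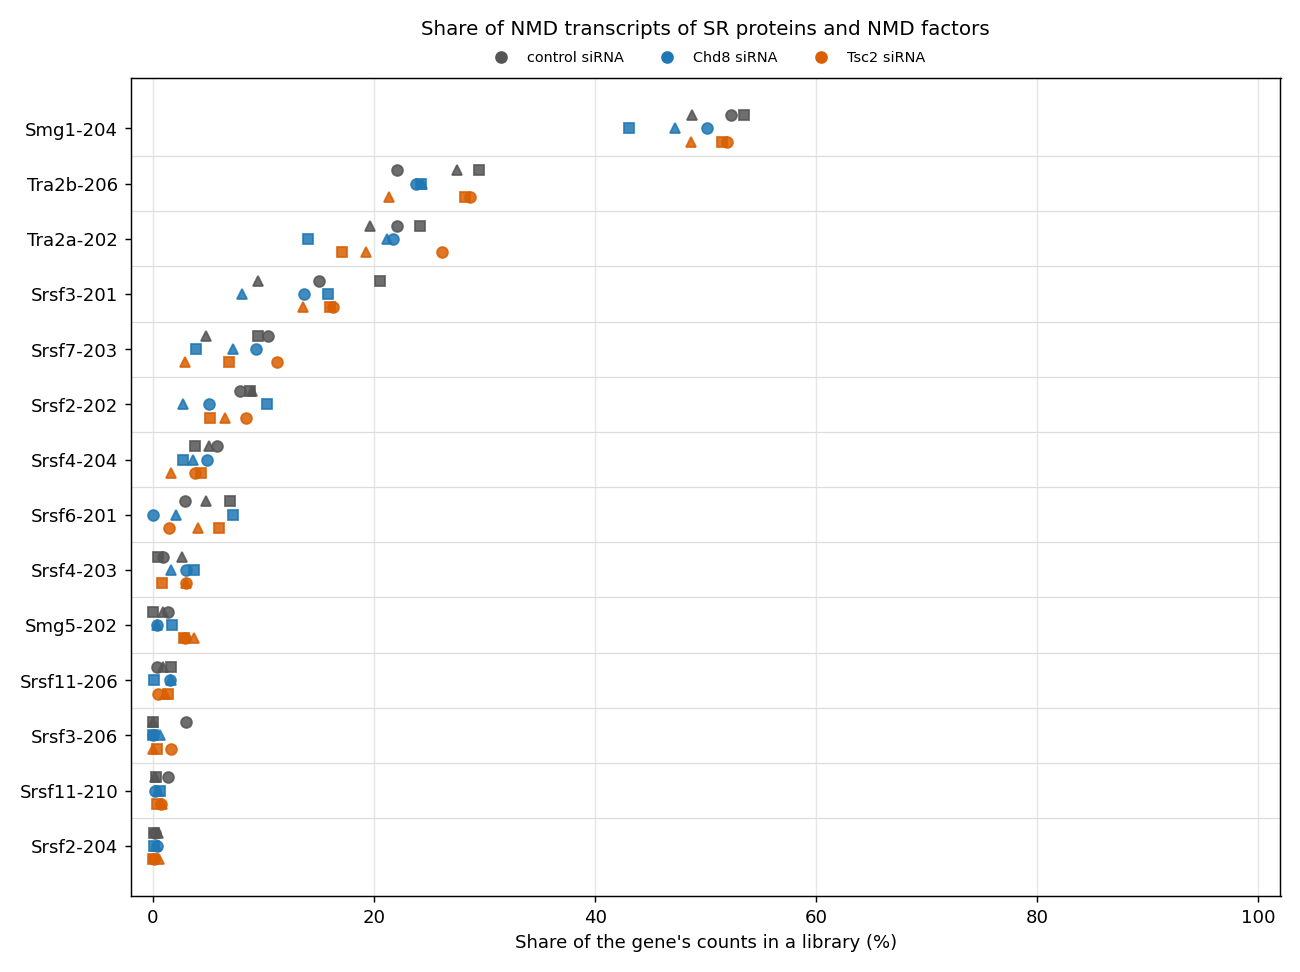
Share of the counts of its gene (x axis, %) of the 12 NMD transcripts of SR proteins and the 2 of NMD factors (rows, highest mean share on top) in each of the 9 libraries. Colors give the siRNA group, and circle, square, and triangle give replicates 1, 2, and 3; Smg1-204 lies between 43.1% and 53.4%, Tra2b-206 between 21.3% and 29.5%, and most others under 10%.

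Smg1-204 (chr7:118134047-118212970, − strand) was the abundant NMD transcript of an NMD factor, at 182 CPM. Its stop codon is in exon 2 of 61, within the coding sequence of a protein-coding transcript. It held 52.3%, 53.4%, and 48.7% of the Smg1 counts with control siRNA, 50.1%, 43.1%, and 47.2% with Chd8 siRNA, and 51.9%, 51.5%, and 48.7% with Tsc2 siRNA. The Chd8 siRNA difference was −0.14 ± 0.06 on the log2 scale (edgeR, unadjusted p = 0.057, adjusted p = 1), with 1 library above the lowest control library. Smg5-202 held 1.39%, 0%, and 0.925% with control siRNA, 0.403%, 1.71%, and 0.352% with Chd8 siRNA, and 2.86%, 2.78%, and 3.68% with Tsc2 siRNA, so that all 3 Tsc2 siRNA libraries lay above the others. Its largest count was 54, and it needed the Tsc2 siRNA libraries to reach the minimum.

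Among 21 NMD transcripts of hnRNP genes, Hnrnpa2b1-209 held 19.7%, 21.2%, and 10.2% with control siRNA, 20.6%, 25.7%, and 16.6% with Chd8 siRNA, and 28.3%, 28.9%, and 23.9% with Tsc2 siRNA, a log2 difference of 0.67 ± 0.28 for Tsc2 siRNA (unadjusted p = 0.0479, adjusted p = 1). It was the 1 hnRNP transcript under an unadjusted p of 0.05 in either knockdown, and replicate 3 was the lowest in each group. Of 67 transcripts of other splicing factors none was under 0.05 in either knockdown, and Khdrbs1-202, of the RNA-binding protein Sam68, held 53.8% to 63.6% of its gene. In 9 transcripts of RNA helicases, Dhx15-207, of a helicase that takes spliceosomes apart, ranged from 7.89% to 18.6%, and none was under 0.05 in either knockdown.

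In the TSC and mTOR pathway 13 NMD transcripts of 7 genes were present, of which 1 was higher and 1 lower with Chd8 siRNA and 1 lower with Tsc2 siRNA at an unadjusted p under 0.05. The last was Rptor-211 (chr11:119603698-119899576, + strand), of the mTORC1 subunit raptor. It held 38.1%, 43.7%, and 40.8% of the Rptor counts with control siRNA, 37.9%, 27.1%, and 18.4% with Chd8 siRNA, and 25.1%, 24.8%, and 19.5% with Tsc2 siRNA. Every knockdown library was below every control library, narrowly so in Chd8 siRNA replicate 1, and the log2 difference was −0.82 ± 0.24 for Tsc2 siRNA (unadjusted p = 0.0116) and −0.55 ± 0.24 for Chd8 siRNA (unadjusted p = 0.0565), with an adjusted p of 1 in both. Summed over the list, the NMD transcripts held 17.1%, 20.4%, and 19.8% with control siRNA, 19.2%, 11.99%, and 13.98% with Chd8 siRNA, and 16.5%, 12.3%, and 13.5% with Tsc2 siRNA, the 1 of 15 lists whose sums did not overlap between Tsc2 siRNA and control. No test was run on the sums, and with 3 libraries a group an exact test could not reach 0.05. The median log2 difference of the 13 single shares was −0.059 with Chd8 siRNA and 0.078 with Tsc2 siRNA, the latter opposite in sign to the sum. Rptor-211 was the most abundant of the 13 and weighs most in the sum. Rragc-205, of a Rag GTPase, held 1.38% to 7.35% with overlapping groups.

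In genes of translation and protein turnover the most abundant NMD transcripts of each list are named, with their range over the 9 libraries. The median share was 1.15% in the ribosomal protein list, 5.12% in translation factors, and 4.54% in the ubiquitin and proteasome list. Of 15 in ribosomal protein genes, Rpsa-206 held 47.8% to 55.2%, and 1 was higher and none lower at an unadjusted p under 0.05 in each knockdown. Among 11 in translation factors, Eef1b2-205 held 50.7% to 58.8% and Eif4a1-201 9.84% to 14.5%, with 1 lower in Chd8 siRNA. Lars2-209 aside, the aminoacyl-tRNA synthetases had Qars-231, and none of their 9 was under 0.05. Of 64 tested among the 65 transcripts of the ubiquitin and proteasome list, 1 was higher and 3 lower with Chd8 siRNA and 4 were lower with Tsc2 siRNA, and the abundant Usp7-206 and Ube2n-205 held 47.96% to 60.9% and 37.7% to 52.3%.

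Of 9 in the respiratory chain and ATP synthase, 1 was lower with Chd8 siRNA, and Atp5f1-203 and Ndufs4-204 held 13.9% to 29.5% and 26.1% to 39.6%. In 45 transcripts of chromatin regulators, the class of the Chd8 protein, 1 was higher with Chd8 siRNA and none changed at that level with Tsc2 siRNA, and Brd2-207 and Arid5a-205 held 14.4% to 19.75% and 26.02% to 44.4%. Among 12 of lysosome and autophagy genes, Man2b1-203 was higher with Tsc2 siRNA, and Ctsl-207, of cathepsin L, held 9.14% to 15.7%. In 51 transcripts of immune genes, 2 were higher with Chd8 siRNA and 2 higher and 2 lower with Tsc2 siRNA, and Lilr4b-213, of an inhibitory receptor, held 7.14% to 14.4%.

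Interferon-induced genes, a list drawn up after the most abundant transcripts had been seen, had 23 NMD transcripts in 19 of 75 genes with counts in every library. Their summed share was 14.1%, 13.1%, and 13.7% with control siRNA, 15.1%, 13.9%, and 13.7% with Chd8 siRNA, and 14.97%, 14%, and 14.98% with Tsc2 siRNA. With Chd8 siRNA 1 of the 23 was higher and none lower at an unadjusted p under 0.05, and none was under 0.05 with Tsc2 siRNA.

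The level of the NMD transcripts themselves, tested in CPM without reference to the gene, gave 0 calls as well. Of 2284 tested with edgeR's quasi-likelihood test among 41633 transcripts, none was called in the 3 comparisons (0% of all transcripts in each). At an unadjusted p under 0.05, 48 were higher and 50 lower with Chd8 siRNA, beside 3.32% of all transcripts (1.56% and 1.76%), and 50 and 50 with Tsc2 siRNA, beside 2.83% (1.4% and 1.42%). Between the knockdowns 50 were higher and 59 lower, beside 3.26% of all transcripts (1.59% and 1.67%). Without the Chd8 siRNA library 1 it was 49 and 90 with Chd8 siRNA, beside 1.64% and 2.91%. For Tsc2 siRNA it was 38 and 76 without its library 1 (beside 1.38% and 1.97%), 33 and 43 without its library 2 (beside 1.04% and 1.52%), and 55 and 32 without the control library 2 (beside 1.72% and 1.3%). Between the knockdowns it was 39 and 36 without the Tsc2 siRNA library 3 (beside 1.48% and 1.27%). DESeq2's Wald test called 15, 14, and 10 NMD transcripts in the 3 comparisons, where it called 0.468%, 0.392%, and 0.459% of all transcripts, and 37 of these 39 calls were of transcripts at 0 in a library.

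The genes of the pathway were compared to see whether the NMD machinery itself differed. Of 23 NMD factor genes tested in summed counts, none was called by edgeR's quasi-likelihood test in any comparison, as in all 16229 genes (0%). At an unadjusted p under 0.05, 2 were higher and none lower with Chd8 siRNA, beside 3.83% of all genes (1.74% and 2.1%), and 1 was higher and none lower with Tsc2 siRNA, beside 2.59% (1.19% and 1.4%). Between the knockdowns 1 was higher and none lower, beside 3.1% (1.5% and 1.6%), and DESeq2 called none in any comparison. The replicate numbers paired the libraries in gene levels, and with them as a block edgeR called 0.53% of all genes with Chd8 siRNA, 0.388% with Tsc2 siRNA, and 0.222% between the knockdowns, but none of the 23. At an unadjusted p under 0.05 the blocked fit had 3 of the 23 higher with Chd8 siRNA (Magoh, Dhx34, and Upf1), 2 with Tsc2 siRNA (Magoh and Casc3), and 2 between the knockdowns (Dhx34 and Ncbp1), and none lower. Beside these, 6.76% of all genes were higher and 6.12% lower with Chd8 siRNA, 5.46% and 5.24% with Tsc2 siRNA, and 5.47% and 5.29% between the knockdowns. The median log2 difference of the 23 in the fit without the block was −0.011 with Chd8 siRNA and 0.017 with Tsc2 siRNA. Upf1, the helicase at the center of the pathway, was at 129, 102.3, and 99.9 CPM with control siRNA, 133, 121, and 119 CPM with Chd8 siRNA, and 121, 101.5, and 112 CPM with Tsc2 siRNA. The groups overlapped, although each Chd8 siRNA library exceeded the control library of its number. Summed Smg1 was at 325 to 439 CPM in the 9 libraries.

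Magoh, a core subunit of the exon junction complex, had the lowest p with both knockdowns. It was at 14.9, 14.7, and 12.9 CPM with control siRNA, 17.3, 18.4, and 22.3 CPM with Chd8 siRNA, and 18.4, 22.3, and 22.8 CPM with Tsc2 siRNA, so that every knockdown library exceeded every control library. The log2 differences were 0.45 (unadjusted p = 0.0224) and 0.58 (unadjusted p = 0.00608), and the adjusted p was 1.00 in both. Dhx34, an RNA helicase that activates NMD, was at 9.20, 10.1, and 8.50 CPM with control siRNA, 12.1, 17.4, and 10.4 CPM with Chd8 siRNA (unadjusted p = 0.0472), and 8.45, 8.07, and 6.41 CPM with Tsc2 siRNA. In this fit without the block, next came the cap-binding subunit Ncbp2 with Chd8 siRNA (log2 difference 0.35, unadjusted p = 0.147) and the exon junction factors Casc3 and Magohb with Tsc2 siRNA (0.31 and 0.33, unadjusted p = 0.141 and 0.179). In edgeR's fit with the replicate block the unadjusted p of these was 0.125, 0.015, and 0.0932. With the block, Upf1 (unadjusted p = 0.0449) came before Ncbp2 with Chd8 siRNA.

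Genes whose mRNA is known to rise when NMD is weakened were compared in the same way. Of 21 tested, none was called by edgeR or DESeq2, and at an unadjusted p under 0.05 none was higher and 2 were lower with Chd8 siRNA, while 1 was higher and none lower with Tsc2 siRNA, and none was higher and 2 were lower between the knockdowns. Over all genes it was 1.74% and 2.1% with Chd8 siRNA, 1.19% and 1.4% with Tsc2 siRNA, and 1.5% and 1.6% between the knockdowns. The median log2 difference of the 21 was −0.17 with Chd8 siRNA, 0.17 with Tsc2 siRNA, and −0.33 between the knockdowns, beside −0.018, −0.018, and 0.0047 over all genes. With the replicate block none was called either, and 1 was higher (Cdkn1a, log2 difference 0.25) and 3 lower (Atf4, Gas5, and Snhg1) with Chd8 siRNA, 5 were higher and none lower with Tsc2 siRNA (Asns, Atf3, Ddit3, Gadd45b, and Trib3), and 1 was higher and 3 lower between the knockdowns. Over all genes the blocked fit had 6.76% higher and 6.12% lower with Chd8 siRNA, 5.46% and 5.24% with Tsc2 siRNA, and 5.47% and 5.29% between the knockdowns. The 2 lower with Chd8 siRNA without the block were host genes of small nucleolar RNAs. Gas5 was at 11.8, 10.7, and 12.2 CPM with control siRNA and 9.81, 5.68, and 6.75 CPM with Chd8 siRNA (log2 difference −0.63, unadjusted p = 0.0167), and Snhg1 at 3.05, 4.13, and 7.17 against 2.65, 2.42, and 2.76 CPM (−0.87, unadjusted p = 0.0401). Trib3, a stress-induced pseudokinase, was at 0.377, 0.431, and 0.472 CPM with control siRNA and 1.88, 1.35, and 1.05 CPM with Tsc2 siRNA (log2 difference 1.73, unadjusted p = 0.0172). Atf4, the transcription factor of the same stress response, was at 158 to 181 CPM with control siRNA and 160 to 207 CPM with Tsc2 siRNA.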

How the data were processed

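RNA-seq libraries were available for 9 samples of primary microglia, grouped by the siRNA in the sample descriptions. The authors quantified reads with salmon 0.14.1 on mm10 and deposited estimated counts per transcript, unnormalized and not pooled; the annotation release is not given in the sources used here. For library preparation the study's methods give an Illumina kit for total RNA, whereas the descriptions of the samples give a stranded SMARTer kit. Estimated counts were rounded. GENCODE release 21 matched 139852 of 140948 transcripts, and the 1096 others held 0.27% of counts. Transcript types, stop codons, and sequences came from that release.

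Shares were tested with edgeR 4.0.16 (glmQLFit and glmQLFTest, R 4.3.3), with the log of the gene's count as offset, all 9 libraries in one fit, and siRNA as the only factor. Transcripts needed 10 or more counts in 3 libraries, a second transcript in the gene, and 10 or more gene counts in every library; 87 NMD transcripts failed this. Levels were tested after filterByExpr and TMM. Benjamini-Hochberg adjustment was over all features, and calls needed an adjusted p under 0.05 and a 1.5-fold change. The share tests and the transcript-level tests of edgeR and DESeq2 were tried on simulated data, for Chd8 siRNA against control siRNA. There edgeR's quasi-likelihood share test recovered few of the transcripts that had been changed, so 0 calls can leave changes undetected. Gene-level fits and the other alternatives were not tried on simulated data. P-values measure the spread between these libraries, and whether same-numbered libraries came from 1 culture is not given. Floors cover counting error only. Whether salmon was run with strand is not given, so antisense overlaps could share reads.

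Named transcripts were the 12 most abundant, the 10 with the highest share in genes of 10 CPM or more, the 5 higher and 5 lower with the lowest p in each comparison, all of SR proteins and NMD factors, and the 2 most abundant of each other list. Of these, 2 are not reported here. Transcripts, lists, and tests were chosen with earlier results of these data known. Alternatives were the replicate block, other count filters, diffSpliceDGE, limma 3.58.1 on log2 ratios (pseudocount 0.5), DESeq2 1.42.0, fits of 2 groups, no fold threshold, and each library left out. Tables and figures were made with Python 3.11.15, pandas 2.3.3, and matplotlib 3.10.9.

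Same-numbered libraries deviated together in gene levels (correlation of deviations from the group means over 0.1 in 9 of 9 pairs) and transcript levels (9 of 9), and not in shares (0 of 9), so the numbers were taken to pair the libraries for levels only.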

Additional observations from a re-analysis of the deposited data

How the results depend on the processing

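The count of 0 NMD transcripts called for share was the same with the replicate block, without the fold threshold, under both other count filters, in fits of 2 groups, and without any 1 library, although the numbers at an unadjusted p under 0.05 changed without 1 library, to 32 to 60 higher and 39 to 77 lower for Chd8 siRNA, 31 to 65 higher and 41 to 78 lower for Tsc2 siRNA, and 32 to 73 higher and 28 to 81 lower between the knockdowns. edgeR's diffSpliceDGE called 8, 3, and 5 and limma on log2 ratios 3, 4, and 2 NMD transcripts for Chd8 siRNA against control, Tsc2 siRNA against control, and Chd8 siRNA against Tsc2 siRNA; each of these had 0 counts in at least 1 library. Those not described above were Dnmt3a-215, Pisd-207, Pias2-204, Zfp236-205, Tbc1d22b-203, Immt-213, and Rc3h2-205 with diffSpliceDGE and Cds2-206 with limma, all named after their values were seen. For levels DESeq2's Wald test called 15, 14, and 10, and 37 of these 39 calls had a library at 0. The replicate block made no call of a share, of the level of an NMD transcript, or of a pathway gene (0 in each), while over all genes, where 0 were called without it, it called 86, 63, and 36; for shares the numbers do not pair the libraries, and the correlation of deviations was 0.00683 on average over 9 pairs. For pathway genes every alternative gave 0 calls. Among the named transcripts the sign of the log2 difference in share was opposite to that in edgeR's quasi-likelihood test in 7 of 243 differences with the replicate block, 9 of 243 with limma, and 8 of 237 with diffSpliceDGE, none of them at an unadjusted p under 0.05; the largest turned by the block was 2.18 on the log2 scale, in Srsf3-206, and by limma 0.56, and the block turned 2 pathway gene differences of at most 0.031.

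The difference in the summed NMD share between Chd8 siRNA and control (0.044 percentage points) was 0.019 with counts per transcript length, 0.0552 with transcripts of 10 or more counts in all 9 libraries, −0.00593 without the 20 most abundant, and 0.0265 to 0.0638 without 1 library. It was 0.0426 with no minimum count and 0.0406 without Lars2-209. The sum per transcript length had a control mean of 0.45% rather than 1.78%, so its differences are on another scale. The difference between Tsc2 siRNA and control (0.0587) was 0.0480 with counts per transcript length and 0.0645 with transcripts of 10 or more counts in all 9 libraries. It was 0.0602 with no minimum count, 0.0644 without Lars2-209, and 0.0166 without the 20 most abundant. The cause was not tested. Of the 566 tested NMD transcripts between 0.586 and 1.25 CPM, 72.4% were at 0 in some library.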

Other observations

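The following transcripts were called by the alternative tests. Pias2-204, of a SUMO ligase, had 5, 50, and 45 counts with control siRNA, 0 in all Chd8 siRNA libraries, and 10, 159, and 32 with Tsc2 siRNA, and Tbc1d22b-203, of a Rab GTPase-activating protein, had 4, 35, and 58, then 0, and then 4, 46, and 52. Pias2-204 was among the calls of edgeR's diffSpliceDGE, lower with Chd8 siRNA than with control siRNA (adjusted p = 0.0219). Tbc1d22b-203 reached the count minimum only with the control libraries, so nothing is read from its call and only its counts are given. Dnmt3a-215, of a DNA methyltransferase, had 0 counts in the control libraries, 223, 131, and 0 with Chd8 siRNA, and 53, 131, and 0 with Tsc2 siRNA. It was present in 2 of 3 Chd8 siRNA libraries and needed them to reach the minimum, so nothing is read from its call. Khnyn-203, of a cofactor in the decay of viral RNA, was one of the calls of DESeq2 with counts in every library, at 387, 239, and 323 counts with control siRNA and 668, 385, and 511 with Chd8 siRNA (log2 difference 0.67, adjusted p = 0.014). These were chosen after their values were seen, and edgeR's quasi-likelihood test called none of them.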
